A study of Mus musculus with 12 samples.

Results

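The mouse genes whose symbols consist of Zfp and a number mostly encode zinc finger proteins. Members were chosen by their raw counts, as the Zfp symbols, without the mRNA decay factor Zfp36, whose count averaged at least 10 over the 12 libraries. Of 304 such symbols in the table, 207 met the limit and 97 did not. The 207 members made up 1.45% of the 14323 symbols listed. Just inside the limit lay Zfp365 with a mean count of 10.6 and Zfp69 and Zfp81 with 10.2 each. Just outside lay Zfp661 with 9.92, Zfp286 with 9.75 and Zfp398 with 9.67. In all, 173 members averaged 10 or more counts in each of the 4 groups, and 34 did so in fewer groups. Of the 34, 5 did so only in the groups with anti-CD3 and 2 only in the groups without it.

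Naïve CD8+ T cells, sorted from spleens of 3 adult wild-type C57BL/6N mice, were cultured for 6 h at 100000 cells per well in 4 conditions. Unstimulated cells with isotype antibody formed the first group and unstimulated cells with the LAIR-1 agonist antibody 2C7 at 2.5 µg/ml the second. Cells with 2.5 µg/ml of immobilised anti-CD3ε (145-2C11) and isotype antibody formed the third group and cells with both antibodies the fourth, each with 1 library per mouse (n = 3). LAIR-1 is an inhibitory receptor for collagen on immune cells. Anti-CD3 crosslinks the T cell receptor complex, here without an antibody to a costimulatory receptor, so that the model covers the first hours of receptor signalling alone.

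Library totals ran from 1781218 to 7725545 counts. The lowest totals were in unstimulated cells with isotype, and 3 counts, taken as the floor of a library, were worth 0.388 to 1.68 CPM, the count relative to the library total. CPM values below were scaled by TMM, which balances libraries for composition. The protocol counts 1 tag near the 3′ end of a transcript, so levels of different genes were set side by side without dividing by length. These are bulk libraries, in which fewer cells of a type and less RNA per cell cannot be told apart.

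The labelled cell type was checked against its markers. The 5 T cell markers with a row, Cd3e, Cd3d, Cd3g, Cd8a and Cd8b1, summed to 2435 to 2847 CPM in unstimulated and 1364 to 1896 CPM in stimulated libraries. All 5 fell with anti-CD3 and isotype, 4 fell with anti-CD3 in cells with anti-LAIR-1, and Cd3e, Cd3d and Cd3g were higher with anti-LAIR-1 in stimulated cells. Cd4, Foxp3 and Cd40lg together reached at most 4.73 CPM. The B cell list summed to at most 9.46 CPM over 5 genes, led by Cd79b, and the erythroid list to at most 0.396 CPM, from Alas2 alone. The myeloid list gave 29.8 to 64.4 CPM, led by Cst3, and the natural killer cell list 23.4 to 49.2 CPM, led by Eomes, which activated CD8+ T cells also express. In each of these 3 lists 1 gene was tested with anti-CD3, with isotype and with anti-LAIR-1. That of the B cell list (log2 fold change −2.29 and −1.90) and that of the myeloid list (−0.68 and −0.51) were called lower in both. That of the natural killer cell list (0.23 and 0.30) was called in neither. The part of these cells in the results was not tested. All 8 listed genes of the anti-CD3 response rose in both comparisons of anti-CD3 with no stimulation, beside 35.3% and 36.4% of all symbols tested. The lists were chosen with earlier results of these data known, so this is no independent check of the labels.

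C2H2 zinc finger proteins bind DNA through tandem fingers, each held by a zinc ion between paired cysteines and histidines. Many carry a KRAB box, which recruits the scaffold Trim28 (KAP1) and with it the histone methyltransferase Setdb1, HP1 proteins and histone deacetylases, and KRAB zinc finger proteins are known above all for silencing retroelements. Other Zfp genes encode proteins with few fingers and other roles, among them ribosome and spindle factors. By translated annotation, 107 members held a match to the KRAB box, 99 coding members did not, and Zfp783 had no coding sequence. A divergent box, such as that of Zfp263, escapes the search, so "without a KRAB match" does not mean that the protein lacks one. The median number of C2H2 fingers was 12 with and 7 without the match, and Zfp142 had the most with 37. Members lay on 20 chromosomes, with 50 on chromosome 7, 27 on chromosome 17 and 19 on chromosome 8. In the last 500 bases of their transcripts, where the tags lie, 158 members shared under 1% of their 50-base words with another gene and 23 shared over 10%. All words of Zfp708 and Zfp935 were shared, so their values are uncertain.

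Promoter sequences from RefSeq (GRCm38.p6, the 250 bases before the first base of the gene) matched 175 of 207 members. Shown here are the promoters of the KRAB gene Zfp386, which fell furthest among the abundant members, of Zfp296, which rose furthest, and of Zfp53 and Zfp52, neighbours on chromosome 17 that moved in opposite directions. All lie on the plus strand, at chr12:116047474-116047723, chr7:19577037-19577286, chr17:21488738-21488987 and chr17:21535289-21535538 in that order. Capitals mark GC boxes (GGGCGG on either strand).
Zfp386: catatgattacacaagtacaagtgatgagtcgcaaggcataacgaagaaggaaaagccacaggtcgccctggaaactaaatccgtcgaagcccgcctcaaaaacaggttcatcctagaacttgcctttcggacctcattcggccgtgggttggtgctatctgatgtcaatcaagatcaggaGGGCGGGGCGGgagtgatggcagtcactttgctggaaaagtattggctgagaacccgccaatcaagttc
Zfp296: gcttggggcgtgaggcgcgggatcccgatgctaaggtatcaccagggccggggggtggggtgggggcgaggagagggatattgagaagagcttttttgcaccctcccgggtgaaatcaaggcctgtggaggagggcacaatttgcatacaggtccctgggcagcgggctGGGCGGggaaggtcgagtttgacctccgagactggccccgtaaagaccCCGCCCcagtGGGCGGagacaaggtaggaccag
Zfp53: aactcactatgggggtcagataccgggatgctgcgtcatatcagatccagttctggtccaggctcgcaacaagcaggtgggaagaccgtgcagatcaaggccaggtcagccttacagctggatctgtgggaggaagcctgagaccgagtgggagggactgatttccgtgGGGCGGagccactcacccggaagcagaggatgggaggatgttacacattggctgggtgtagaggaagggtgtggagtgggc
Zfp52: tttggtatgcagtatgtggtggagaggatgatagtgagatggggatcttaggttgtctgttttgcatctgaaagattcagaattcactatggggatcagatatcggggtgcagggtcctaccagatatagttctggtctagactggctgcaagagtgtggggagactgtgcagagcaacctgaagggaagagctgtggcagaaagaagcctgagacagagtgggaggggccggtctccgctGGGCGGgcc

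The GC box occurred in these windows of 46.3% of members against 33% of all 27026 genes, searched on both strands. It was present in 66.7% of the 27 members with a window that rose with anti-CD3 and isotype in 44.3% of the 61 that fell and in 45.9% of the 74 that did not pass. The median GC content of these windows was 57.2%, 53.6% and 54.6% in that order. The ETS motif CCGGAAGT was found in 9.14% of members against 2.92% of all genes, the E-box CACGTG in 9.14% against 6.04%, the AP-1 motif TGACTCA in 3.43% against 4.43% and the forkhead motif GTAAACA in 0.571% against 3.06%. The median GC content was 54.4% in members and 52% in all genes, and the median number of CG pairs per window was 12 and 6. GGGCGG, CCGGAAGT and CACGTG each hold a CG pair, while TGACTCA and GTAAACA hold none. The part of CG pairs in these shares was not tested. These shares are descriptions, and a match is not a site.

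The members together summed to 4557 ± 163 CPM (SD, n = 3) in unstimulated cells with isotype, 4754 ± 39.9 with anti-LAIR-1, 4269 ± 106 with anti-CD3 plus isotype and 4198 ± 56.5 with both antibodies. As shares of all counts these were 0.483%, 0.497%, 0.403% and 0.402%. Averaged over the 4 groups, the median member was at 12.8 CPM and the 5 highest, Zfp706, Zfp386, Zfp281, Zfp207 and Zfp746, held 20.1% of the summed level. Zfp706 was the highest at 284 CPM. It encodes a small protein with a single finger match, and 27.8% of its 3′ words were shared with other genes. In unstimulated cells the order was different, with Zfp386 at 400.5 ± 75.9 CPM above Zfp706 at 187 ± 5.87.

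Anti-CD3 lowered more members than it raised. Among 193 members tested against unstimulated cells with isotype, 74 fell and 34 rose, and 85 did not pass the test. Of all 8690 symbols tested, 71.3% were called, 36.1% lower and 35.3% higher, at an adjusted p under 0.05 in edgeR's quasi-likelihood test. Among the tested members, 38.3% were called lower and 17.6% higher, and the difference from all symbols was not tested. The median log2 fold change was −0.39 over members and −0.03 over all symbols. Of the 108 calls, 105 had the same direction in all 3 mice, beside 6073 of the 6199 calls over all symbols. Among the 173 members over 10 counts in every group, 66 fell and 30 rose, with a median of −0.43. Scaling by the upper quartile shifted the median of all symbols by −0.18 and gave 97 lower and 25 higher members. Of all symbols, 3616 were then lower and 2637 higher. The member median relative to all symbols was −0.37 against −0.36. A change of scaling moves all symbols by nearly the same amount, so this relative median cannot show how far the scaling matters. Over all settings tried, the member median relative to all symbols ran from −0.38 to −0.23, the latter without a filter on low counts.

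These shares differed with the level of the genes. Of members with a mean count under 50, 43.5% fell and 7.06% rose, beside 45.5% and 14.8% of all symbols at that level. Of members with 50 counts or more, 34.3% fell and 25.9% rose, beside 32.7% and 42.6% of all symbols. Mitochondrial transcripts held 17.6 to 20.9% of counts without anti-CD3 and 11.5 to 13.2% with it, and the unstimulated libraries with isotype had the lowest totals. The part of these differences in the member counts was not tested. With all libraries thinned to the smallest total, 68 of 163 members tested fell and 27 rose, beside 2801 lower and 2692 higher of all symbols.

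Cells with anti-LAIR-1 in both arms gave a second comparison of anti-CD3 with no stimulation that shares no library with the first. Here 88 of 206 members fell and 31 rose, beside 36.3% and 36.4% of 9000 symbols (72.7% in either direction), with medians of −0.34 and −0.04. Scaling by the upper quartile shifted the median of all symbols by −0.21 and gave 110 lower and 25 higher members, beside 3956 lower and 2699 higher of all symbols. The member median relative to all symbols was −0.31 under either scaling, a value that a change of scaling can hardly move. It ran from −0.36 to −0.21 over all settings tried. In all, 93 members were called in both comparisons, 68 lower in both, 25 higher in both and none in opposite directions. They made up 86.1% of the calls with isotype and 78.2% of those with anti-LAIR-1, beside 90.5% and 85.8% over all symbols, where 5609 were called in both and 2 of them in opposite directions.

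**Figure D1:**
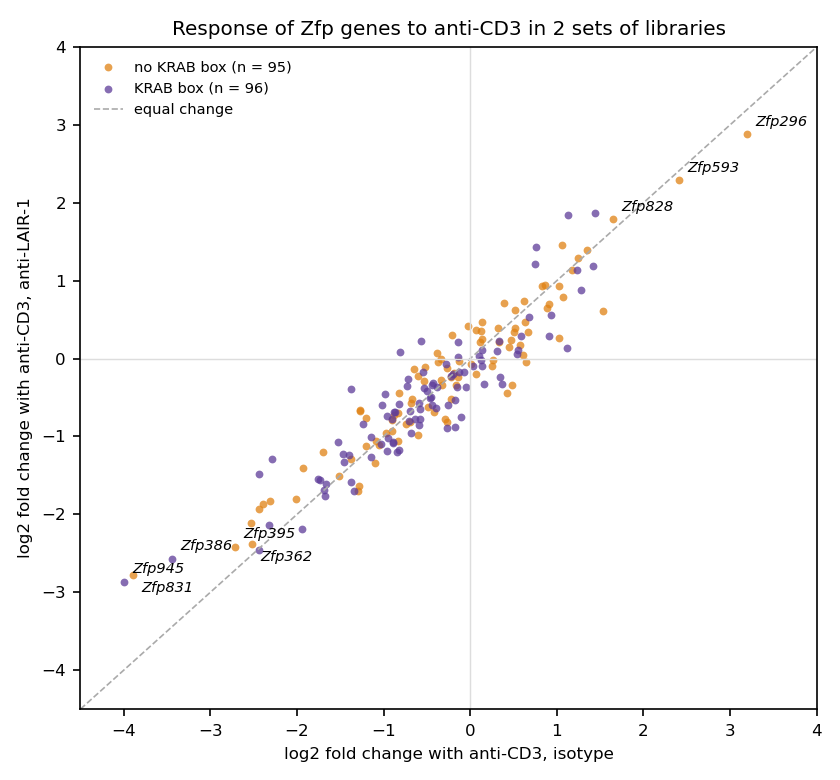
Log2 fold changes with anti-CD3 in libraries with isotype (horizontal axis) and with anti-LAIR-1 (vertical axis) for each member tested in both, purple for members with a KRAB match and orange for members without one; the dashed line marks equal change. Most points lie near the line, and Zfp945, Zfp831 and Zfp386 lie above it at the lower left.

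Members were then set apart by the KRAB match. With isotype, 43 of 97 KRAB members fell and 10 rose, with a median log2 fold change of −0.55. Of 95 members without a match 31 fell and 24 rose, with a median of −0.23. With anti-LAIR-1, 51 of 106 fell and 8 rose (median −0.52), against 37 and 22 of 99 (median −0.13). KRAB members had lower counts, with a median mean count of 37.4 against 77.6. Over all symbols the shares with isotype were 36.1% lower and 35.3% higher, and with anti-LAIR-1 36.3% and 36.4%. Under 50 counts the median log2 fold changes with isotype were −0.69 in KRAB members, with 25 of 57 lower and 4 higher, and −0.68 in the others, with 12 of 27 lower and 2 higher, beside −0.64, 45.5% and 14.8% over all symbols at that level. At 50 counts or more they were −0.33, with 18 of 40 lower and 6 higher, and −0.03, with 19 of 68 lower and 22 higher, beside 0.15, 32.7% and 42.6% over all symbols at that level. The difference between the classes was not tested, as genes are not replicates.

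**Figure D2:**
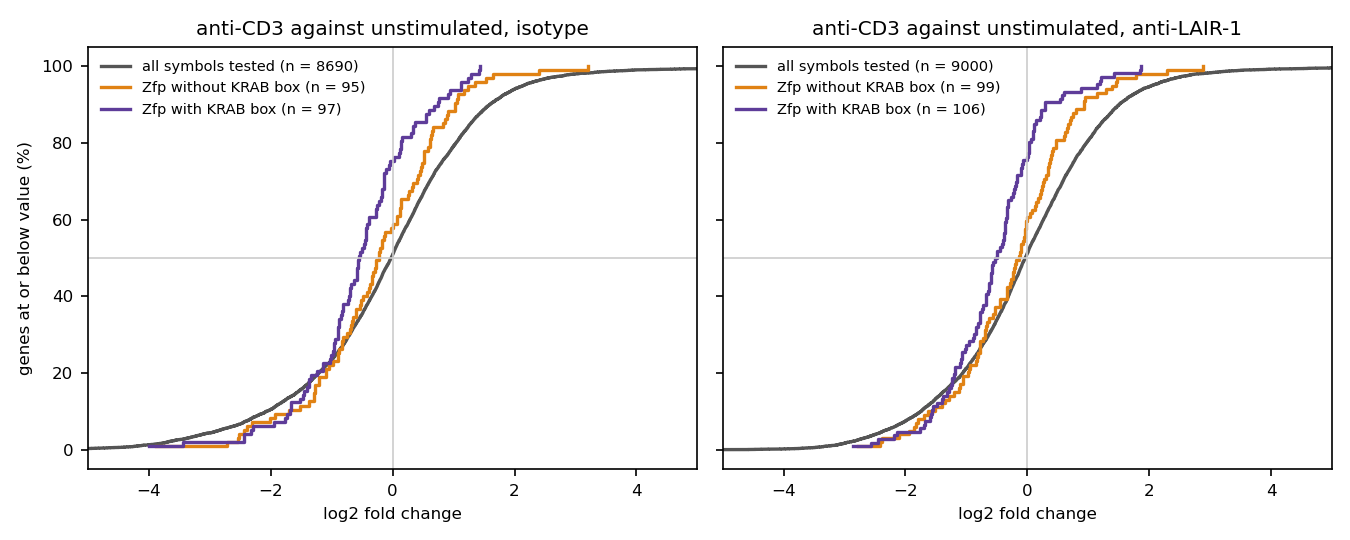
Share of genes (vertical axis, %) at or below each log2 fold change (horizontal axis) with anti-CD3, for all symbols tested (grey) and for members with (purple) and without (orange) a KRAB match, in libraries with isotype (left) and anti-LAIR-1 (right). The KRAB curve crosses 50% at −0.55 on the left and −0.52 on the right, and the grey curve near 0.

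The change with anti-CD3 was greatest in absolute level for Zfp386. This KRAB gene with 9 fingers lies at chr12:116047724-116063360 on the plus strand, and none of its 3′ words were shared. In mice 1, 2 and 3 it stood at 459.6, 427 and 315 CPM in unstimulated cells with isotype and at 40.6, 35.0 and 41.5 CPM with anti-CD3. The groups were far apart, and the lowest unstimulated library was that of mouse 3. The fall was 10.8-fold (log2 fold change −3.44 ± 0.13 SE, adjusted p = 1.74e-16). With anti-LAIR-1 the levels were 431, 406 and 388 CPM in unstimulated cells and 58.8, 71.8 and 79.7 CPM with anti-CD3, a fall of 5.94-fold (−2.57 ± 0.10, adjusted p = 3.95e-14).

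Zfp945, the KRAB gene with 18 fingers on chromosome 17, had the largest fall on the log2 scale. It stood at 21.2, 21.8 and 16.3 CPM in unstimulated cells with isotype and at 2.15, 0.429 and 1.46 CPM with anti-CD3. The anti-CD3 level rested on 18 counts in 3 libraries, and that of mouse 2 lay below the floor of 3 counts. The log2 fold change was −4.00 ± 0.37 with isotype (adjusted p = 1.07e-09) and −2.86 ± 0.24 with anti-LAIR-1. Zfp831, which has 2 fingers and no KRAB match, went from 16.9, 20.2 and 14.7 CPM to 1.23, 0.858 and 1.46 CPM, on 17 counts with anti-CD3. Its log2 fold change was −3.89 ± 0.35 with isotype (adjusted p = 9.42e-10) and −2.78 ± 0.28 with anti-LAIR-1. In neither gene did the stimulated and unstimulated libraries overlap.

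Other members also fell in both comparisons. Zfp362 fell 5.72-fold, from 84.9, 82.0 and 76.8 CPM to 16.9, 13.5 and 14.9 CPM (log2 fold change −2.52 ± 0.15 with isotype, adjusted p = 3.89e-13). Zfp260, a gene of 12 fingers on chromosome 7, fell 5.78-fold, from 68.0, 67.0 and 56.3 CPM to 9.22, 12.4 and 12.6 CPM (−2.53 ± 0.17, adjusted p = 4.37e-12). Zfp395, with a single finger match, fell 6.55-fold, from 33.2, 36.1 and 33.6 CPM to 7.37, 5.36 and 4.37 CPM (−2.71 ± 0.23, adjusted p = 3e-10). With anti-LAIR-1 the log2 fold changes of these genes were −2.39, −2.11 and −2.41. Zfp367, a factor linked to the cell cycle, changed by −2.44 ± 0.23 and −1.94 ± 0.19. The interactions of Zfp362, Zfp260, Zfp395 and Zfp367 did not pass (adjusted p = 0.899, 0.509, 0.772 and 0.55). Among members of low count, the KRAB genes Zfp949 (−2.44 and −2.45), Zfp90 (−2.32 and −2.13), Zfp69 (−1.94 and −2.19) and Zfp810 (−2.44 and −1.48) also fell in both comparisons. Zfp69 stood at 3.65, 5.15 and 3.15 CPM in unstimulated cells with isotype and at 0.922, 1.93 and 0.486 CPM with anti-CD3. It was among the members through the unstimulated groups, where it was high. Members of low count can meet the limit in this way, so nothing further is read from these falls. In the last 500 bases of Zfp90, 72.9% of the words match the reverse complement of another gene's transcript. Whether the counting used strand is not given in the sources used here. Zfp810 lost its call with anti-LAIR-1 without the unstimulated library of mouse 2 (adjusted p = 0.129) and without the stimulated library of mouse 1 (adjusted p = 0.0614).

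**Figure D3:**
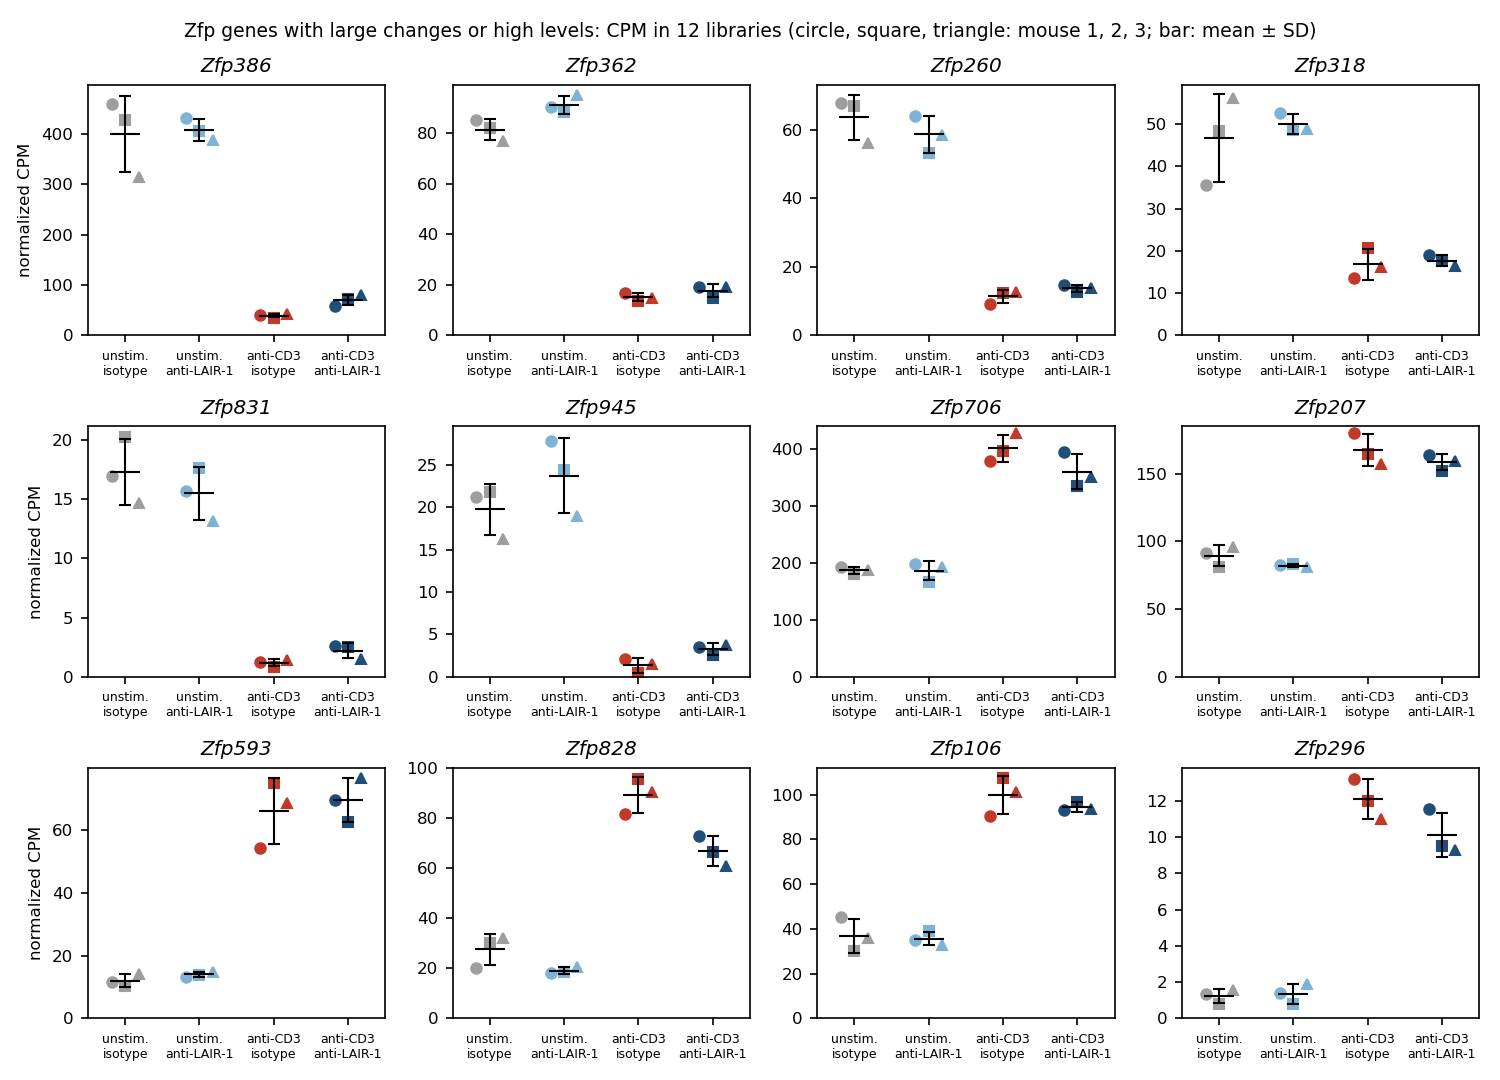
Normalized CPM (vertical axis, starting at 0) of 12 members in each library, by group; circles, squares and triangles are mice 1, 2 and 3 and the bars show the mean and SD. In the first 6 panels the unstimulated libraries lie above all stimulated libraries, and in the last 6 below them.

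Zfp593, whose product matures the large ribosomal subunit, stood at 11.6, 10.3 and 14.2 CPM in unstimulated cells with isotype and at 54.4, 75.05 and 68.7 CPM with anti-CD3. Its groups did not overlap, and the rise was 5.3-fold (log2 fold change 2.41 ± 0.19, adjusted p = 4.95e-11). In Zfp593, 13.5% of the 3′ words match the reverse complement of another gene's transcript. Zfp207 (BuGZ), a kinetochore and spindle protein that binds Bub3, rose from 91.6, 80.9 and 96.2 CPM to 180.4, 165 and 157 CPM (0.83 ± 0.11, adjusted p = 4.53e-07). Zfp330, a nucleolar protein, changed by 1.06 ± 0.13 and 1.46 ± 0.12, and 44.1% of its 3′ words match such a reverse complement. Zfp828, now named Champ1, whose product serves chromosome alignment in mitosis, rose from 20.2, 30.1 and 32.1 CPM to 81.4, 95.4 and 90.5 CPM (1.65 ± 0.16, adjusted p = 2.13e-09).

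Zfp296, a gene of 6 fingers without a KRAB match at chr7:19577287-19580656 on the plus strand, had the largest rise on the log2 scale among the calls. It was 1 of the 5 members that met the limit of 10 counts only in the groups with anti-CD3, so that it was among the members through the groups where it was high. Its raw counts were 4, 2 and 3 in unstimulated cells with isotype and 43, 56 and 68 with anti-CD3. The unstimulated levels of 1.33, 0.793 and 1.58 CPM were near the floor, and the stimulated levels were 13.2, 12.01 and 11.0 CPM. The log2 fold change was 3.20 ± 0.41 (adjusted p = 2.24e-07) with isotype and 2.88 ± 0.35 (adjusted p = 4.67e-07) with anti-LAIR-1. The RNA-binding gene Zfp106 rose by 1.35 ± 0.14 and 1.39 ± 0.11, the most abundant member Zfp706 by 1.02 ± 0.09 and 0.94 ± 0.09, and Zfp281, a transcription factor of embryonic stem cells, by 0.63 ± 0.12 and 0.46 ± 0.09. In each of these 3 genes, all stimulated libraries exceeded all unstimulated ones. The reverse complement of another gene's transcript matched 15.75% of the 3′ words of Zfp106 and 20.02% of those of Zfp706.

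A few KRAB members rose as well. Zfp566 rose from 17.6, 15.5 and 14.7 CPM to 40.6, 42.7 and 51.8 CPM (1.42 ± 0.18, adjusted p = 1.98e-07), with no overlap. Zfp202 changed by 1.44 ± 0.37 with isotype and 1.87 ± 0.35 with anti-LAIR-1, Zfp948 by 1.13 ± 0.33 and 1.85 ± 0.28, and Zfp946 by 1.28 ± 0.31 and 0.88 ± 0.29. The call of Zfp946 with anti-LAIR-1 was lost without the unstimulated library of mouse 1 (adjusted p = 0.0542). Zfp770, without a KRAB match, changed by 1.53 ± 0.32 with isotype and by 0.61 ± 0.25 with anti-LAIR-1 (adjusted p = 0.039). The latter call passed under only 6 of 15 other settings, with adjusted p up to 0.162. Among the losses were those without the unstimulated library of mouse 2 (0.0894) or 3 (0.0819), without the stimulated library of mouse 1 (0.118) or 3 (0.0543), and with DESeq2 (0.0944). Zfp599 passed only with anti-LAIR-1 (1.43 ± 0.38, against 0.76 ± 0.36 and adjusted p = 0.0652 with isotype), and the difference between the comparisons was not significant (interaction adjusted p = 0.719). Zfp239, tested only with anti-LAIR-1 because of its low counts, changed by 1.48 ± 0.40.

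Neighbouring KRAB genes moved in opposite directions on chromosome 17. This region was chosen after its values were seen. Between chr17:21423227-21435640, the position of Zfp54, and chr17:22846697-22867134, that of Zfp945, lie 12 members, all with a KRAB match. With isotype, 3 rose, 3 fell, 5 did not pass and 1 was not tested. With anti-LAIR-1, 3 rose, 7 fell and 2 did not pass. The shares of all symbols were 35.3% higher and 36.1% lower with isotype, and 36.4% and 36.3% with anti-LAIR-1. As the region was chosen for its values, nothing is read from its counts. Zfp53 stood at 18.6, 19.0 and 14.7 CPM in unstimulated cells with isotype and at 8.91, 10.1 and 10.7 CPM with anti-CD3 (−0.89 ± 0.23, adjusted p = 0.00152). Its neighbour Zfp52, whose start lies 46.5 kb away, went from 11.9, 16.3 and 13.7 CPM to 35.0, 38.0 and 31.1 CPM (1.24 ± 0.20, adjusted p = 6.38e-06). Neither pair of groups overlapped. About 1% of the 3′ words of each gene were shared, in Zfp53 with Zfp52.

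Of 33 Zfp genes listed for a known role, 29 were members. With anti-CD3 and isotype, 13 of them rose (44.8%), 5 fell (17.2%) and 11 did not pass, beside 35.3% higher and 36.1% lower of all symbols, or 42.6% and 32.7% of those with 50 counts or more. With anti-LAIR-1 in both arms, 11 rose, 8 fell and 10 did not pass, beside 36.4% and 36.3% of all symbols. The 8 became 5 without the stimulated library of mouse 1 or of mouse 2, and 6 without the unstimulated library of mouse 1 or of mouse 2. Those that rose in both included Zfp598, a ubiquitin ligase that marks collided ribosomes (1.07 ± 0.17 and 0.79 ± 0.13), Zfp609, which binds Nipbl (1.17 ± 0.20 and 1.14 ± 0.17), Zfp131, a BTB zinc finger (0.51 ± 0.13 and 0.62 ± 0.12), and Zfp568, a KRAB repressor of a placental Igf2 transcript (0.94 ± 0.17 and 0.56 ± 0.16). Those that fell in both included Zfp318, which controls IgD in B cells (−1.52 ± 0.20 and −1.51 ± 0.13), and the Zmynd8 partners Zfp592 (−0.74 ± 0.15 and −0.84 ± 0.12) and Zfp687 (−1.05 ± 0.32 and −1.11 ± 0.26).

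Others of the list did not pass in either comparison. Zfp622, a maturation factor of the large ribosomal subunit, was at 0.12 ± 0.16 (adjusted p = 0.512) and 0.22 ± 0.13 (adjusted p = 0.145). The imprint keeper Zfp445 was at 44.5, 46.4 and 45.2 CPM in unstimulated cells with isotype and at 53.8, 49.1 and 44.0 CPM with anti-CD3 (0.03 ± 0.14, adjusted p = 0.874). Zfp809, which silences murine leukaemia proviruses, was at 12.6, 7.53 and 14.2 CPM and at 13.8, 13.3 and 13.0 CPM (0.16 ± 0.25, adjusted p = 0.586). The stimulated libraries of both genes overlapped with the unstimulated ones. The same was so for Zfp746 (PARIS), at −0.18 ± 0.13, and Zfp335, a factor needed in naïve T cells, at −0.37 ± 0.23. However, 88.5% of the 3′ words of Zfp335 match the reverse complement of another gene's transcript. Zfp410, an activator of Chd4, was at 0.26 ± 0.17 (adjusted p = 0.178), while Chd4 itself rose by 1.00 ± 0.09.

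The partners of the KRAB proteins were described from a list of 25 corepressor genes. With isotype, 13 of 24 tested rose and 5 fell, beside 35.3% and 36.1% of all symbols and 42.6% and 32.7% of those with 50 counts or more. Their median log2 fold change was 0.44 against −0.03 over all symbols. Trim28, the scaffold that KRAB boxes bind, stood at 296, 301 and 315 CPM in unstimulated cells with isotype and at 689, 727 and 673 CPM with anti-CD3, with no overlap (1.12 ± 0.09, adjusted p = 5.01e-11). Setdb1, its methyltransferase partner, was at 0.20 ± 0.14 (adjusted p = 0.22). The DNA methyltransferase Dnmt3a rose by 2.02 ± 0.11, the histone H3K9 methyltransferase Suv39h2 by 3.38 ± 0.35 from 1.70 CPM, and the deacetylase Hdac2 by 1.17 ± 0.10. In the unstimulated library of mouse 3 with isotype, Suv39h2 was at 1.05 CPM, below the floor of 1.68 CPM there. With anti-LAIR-1 Suv39h2 changed by 2.34 ± 0.34. Chd3, a NuRD helicase, fell by 1.68 ± 0.12 on the log2 scale, the H3K9 methyltransferase Ehmt2 (G9a) by 1.93 ± 0.21 and Atf7ip, which stabilises Setdb1, by 1.10 ± 0.18. With anti-LAIR-1, 13 of 25 rose and 6 fell, beside 36.4% and 36.3% of all symbols. Of the HUSH silencing complex and its partner, Mphosph8, Pphln1 and Morc2a rose with isotype. With anti-LAIR-1 Pphln1 and Morc2a rose, and Mphosph8 was at 0.32 ± 0.18 (adjusted p = 0.123).

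**Figure D4:**
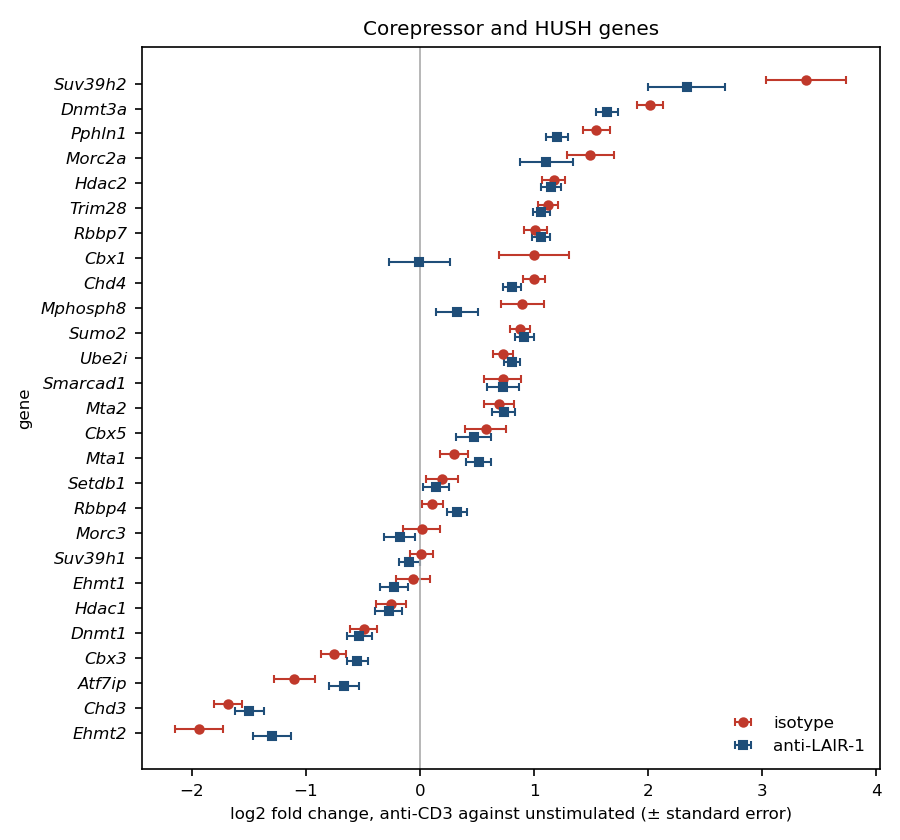
Log2 fold change with anti-CD3 (horizontal axis, bars are ± standard error) of corepressor and HUSH genes in libraries with isotype (red circles) and with anti-LAIR-1 (blue squares). Suv39h2 and Dnmt3a lie furthest right and Ehmt2 and Chd3 furthest left in both.

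Zbtb genes, zinc finger genes with a BTB domain in place of the KRAB box, gave a comparison outside the Zfp symbols. Of 31 tested with isotype, 13 fell (41.9%) and 1 rose (3.23%), with a median of −0.23, beside 36.1% and 35.3% of all symbols. With anti-LAIR-1, 14 of 32 fell (43.8%) and 3 rose (9.38%), with a median of −0.28, beside 36.3% and 36.4%. Of 7 Zkscan genes, 3 fell and none rose in either comparison. Of the Zscan genes, 2 of 6 fell and 1 rose with isotype, and 2 of 7 fell and 1 rose with anti-LAIR-1.

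The libraries were made to find which genes respond to LAIR-1 ligation. Among 201 members tested in stimulated cells, 2 rose and 4 fell with anti-LAIR-1 against isotype, which is 2.99% of them beside 5.76% of 8800 symbols (3.9% higher and 1.86% lower). At an unadjusted p under 0.05, 18 members (8.96%) passed beside 18.8% of all symbols. The medians were 0.01 over members and 0.00 over all symbols. This comparison uses the same anti-CD3 and isotype libraries as the first one above, so the values below are given side by side only.

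Zfp386 was the member with the lowest adjusted p. It stood at 40.6, 35.0 and 41.5 CPM in stimulated cells with isotype and at 58.8, 71.8 and 79.7 CPM in those with anti-LAIR-1. The groups did not overlap, and the level was higher in 3 of 3 mice by 1.79-fold (log2 fold change 0.84 ± 0.12, adjusted p = 0.000475). The call was kept under all 15 other settings tried. Markers of naïve T cells moved with it: Lef1 (0.67), Tcf7 (0.63) and Il7r (1.33) were also higher with anti-LAIR-1 in stimulated cells on the log2 scale (adjusted p = 0.000113, 0.00715 and 0.00124), and Ccr7 was at −0.21 (adjusted p = 0.337). Their part in the result was not tested. Even with anti-LAIR-1, the stimulated level of 70.1 ± 10.6 CPM stayed far below the unstimulated levels of 400.5 ± 75.9 and 409 ± 21.5 CPM. Zfp710, a gene of 11 fingers without a KRAB match, had a similar pattern, with 4.92, 8.15 and 7.77 CPM against 12.5, 14.5 and 13.1 CPM (0.90 ± 0.22, adjusted p = 0.0197), after 35.8 ± 6.29 CPM in unstimulated cells with isotype. In unstimulated cells it was also higher with anti-LAIR-1 in 3 of 3 mice (0.40 ± 0.16), without passing the test (adjusted p = 0.997). Its call was lost without the isotype library of mouse 1 (adjusted p = 0.0645) or the anti-LAIR-1 library of mouse 2 (adjusted p = 0.0869). It was also lost with libraries thinned to the smallest total (adjusted p = 0.239).

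The calls of the 4 members that fell depended on single libraries, and DESeq2 called only Zfp828 and Zfp553 of them, with adjusted p of 0.0518 for Zfp329 and 0.0527 for Zfp788. Zfp828 was at 81.4, 95.4 and 90.5 CPM with anti-CD3 and isotype and at 72.8, 66.3 and 60.9 CPM with anti-LAIR-1 (−0.41 ± 0.10, adjusted p = 0.0172). In unstimulated cells it was lower with anti-LAIR-1 in 3 of 3 mice as well (−0.53 ± 0.20), without passing (adjusted p = 0.997). Zfp329 was at 36.9, 39.9 and 42.1 against 25.3, 29.8 and 31.3 CPM (−0.47 ± 0.13, adjusted p = 0.0381). Zfp553 was at 14.4, 17.8 and 17.5 against 10.4, 10.7 and 7.61 CPM (−0.78 ± 0.19, adjusted p = 0.0229). All of these groups were separate. Zfp788, a KRAB gene of 23 fingers, was at 8.30, 8.79 and 9.55 against 6.23, 3.23 and 3.17 CPM (−1.03 ± 0.28, adjusted p = 0.0395), with the anti-LAIR-1 library of mouse 1 well above the other two. Without the isotype library of mouse 2, none of the 4 passed, with adjusted p of 0.0796, 0.0952, 0.0844 and 0.0952 in that order. Without that of mouse 3, Zfp329 (0.128), Zfp553 (0.0793) and Zfp788 (0.127) were lost, and without that of mouse 1, Zfp788 (0.0633). Without the anti-LAIR-1 library of mouse 1, Zfp329 was lost (0.159). Without that of mouse 2, Zfp828 (0.0659), Zfp329 (0.0869) and Zfp788 (0.158) were lost, and without that of mouse 3, Zfp828 (0.0656), Zfp553 (0.081) and Zfp788 (0.125). With libraries thinned to the smallest total, all 4 were lost. Zfp609 lay just past the threshold at −0.50 ± 0.15 (adjusted p = 0.0502) and passed under 5 of 15 other settings.

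**Figure D5:**
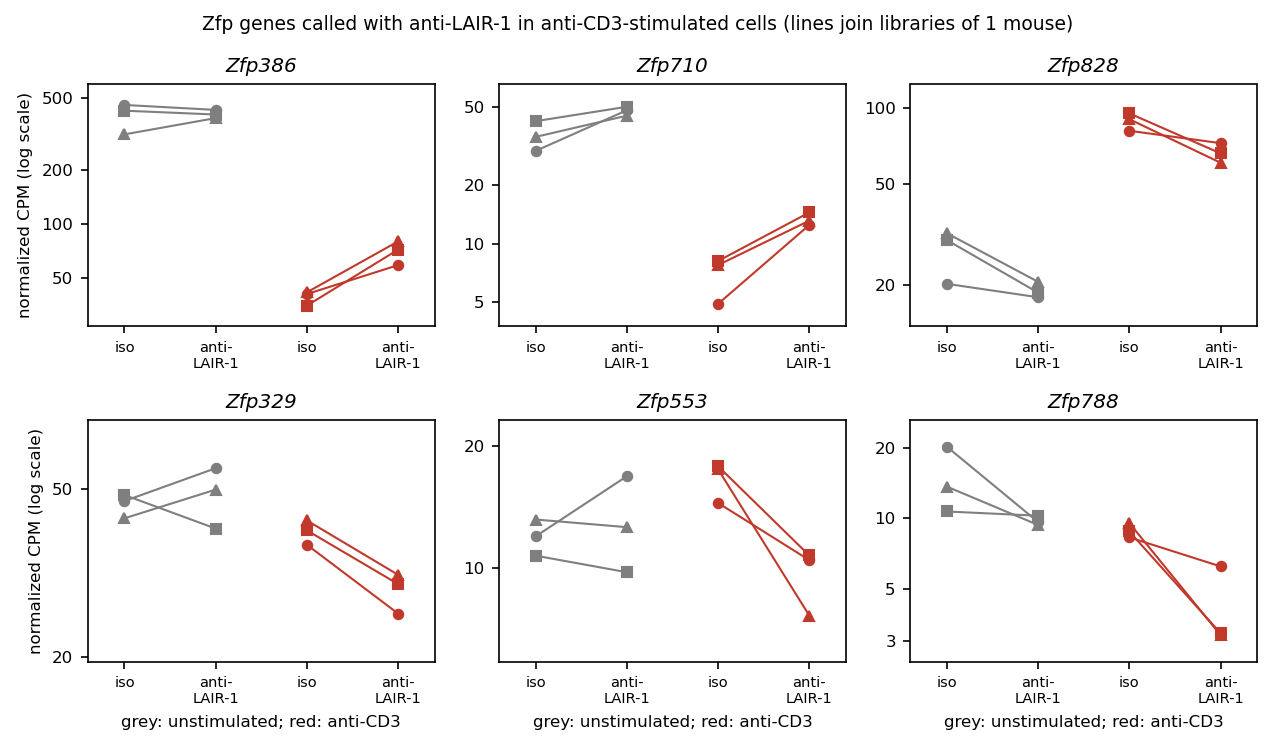
Normalized CPM (vertical log axis) of the 6 members called with anti-LAIR-1 in stimulated cells, with lines joining the isotype and anti-LAIR-1 libraries of each mouse, grey for unstimulated and red for stimulated cells. All red lines rise for Zfp386 and Zfp710 and fall for the other 4 genes, while the grey lines of Zfp386 differ in direction between mice.

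Among the corepressors, 2 of 25 were lower with anti-LAIR-1 in stimulated cells and none higher, beside 1.86% and 3.9% of all symbols. Dnmt3a was at 385, 356 and 294 CPM against 255, 285 and 250.4 CPM (−0.38 ± 0.09, adjusted p = 0.0195). The HP1 gene Cbx1 was at 10.1, 9.86 and 10.8 against 5.69, 6.12 and 6.13 CPM (−0.78 ± 0.22, adjusted p = 0.0421), and Mphosph8 of the HUSH complex at 48.5, 48.9 and 47.8 against 34.7, 30.1 and 30.0 CPM (−0.60 ± 0.11, adjusted p = 0.00387). The groups were separate in each gene. Trim28 was at −0.04 ± 0.06 (adjusted p = 0.821). None of the 25 corepressors and none of the 3 HUSH genes was called in the interaction, beside 2.07% of all symbols. The calls of Dnmt3a, Cbx1 and Mphosph8 were not tried under other settings.

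In unstimulated cells, no member passed the test with anti-LAIR-1. None of 200 members tested was called with edgeR, beside 0% of 8770 symbols, and DESeq2 called none either. At an unadjusted p under 0.05, 11 members (5.5%) passed with edgeR, beside 4.38% of all symbols, and 9 with DESeq2. The median log2 fold change was 0.07 over members and 0.00 over all symbols. Zfp386 was at 0.00 ± 0.11, with the groups overlapping.

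The interaction over all 12 libraries asked whether the effect of anti-LAIR-1 differed with stimulation. Of 207 members tested, 1 was called, Zfp386, beside 2.07% of 9223 symbols (1.82% higher and 0.249% lower). Its effect of anti-LAIR-1 was higher with anti-CD3 by 0.84 ± 0.17 on the log2 scale (adjusted p = 0.0076), in the same direction in 3 of 3 mice. The call was kept under all 20 other settings. Other genes called higher in the interaction included the naïve T cell markers Lef1 (0.64, adjusted p = 0.00209), Tcf7 (0.71, adjusted p = 0.0191) and Il7r (1.17, adjusted p = 0.01). The T cell markers Cd3e (0.50, adjusted p = 0.0227) and Cd3g (0.58, adjusted p = 0.00933) were called higher as well. Of the naïve T cell markers, 1 was negative and not called, and 3 of the 5 T cell markers were not called. The part of these markers in the result was not tested. At an unadjusted p under 0.05, 14 members (6.76%) passed beside 12.2% of all symbols.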

How the data were processed

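Counts per gene symbol for 12 libraries were analysed as the authors deposited them. Per the study's methods and processing notes, RNA was amplified by an adapted CEL-seq protocol, and reads were aligned with BWA to the mm10 transcriptome, with multi-mapping reads discarded. Whether molecular identifiers were collapsed and strand was used is not given in the sources used here. In edgeR 4.0.16 (R 4.3.3), each pair of groups was fitted alone over all symbols passing filterByExpr, with TMM factors, quasi-likelihood F tests and Benjamini-Hochberg adjustment (threshold 0.05). The interaction used all 12 libraries. DESeq2 1.42.0 and other scalings, filters and subsets were alternatives. KRAB boxes (at least 7 of 8 constrained positions) and C2H2 fingers were sought in translated GENCODE coding sequences of the same build. All members had an annotation, 203 by symbol and 4 by an older name.

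Same-numbered libraries came from the same mouse, so they pair by animal, although deviations from group means correlated only weakly (mean r 0.0489 within and −0.0245 between mice). Replicates of a group differed by more than counting error (chi-square per degree of freedom 3.82 to 5.62), so no library was a duplicate. The p-values measure the spread between 3 mice.

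Genes named are the 5 highest members, the 8 largest called changes in each direction with anti-CD3, those called with anti-LAIR-1 or in the interaction, listed roles and the list genes. The neighbours Zfp52 and Zfp53 were added after their values were seen. Members and lists were chosen with earlier results of these data known. The naïve T cell marker list is not reported here as a whole.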

Additional observations from a re-analysis of the deposited data

Results flagged for a closer look

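Zfp386 stood out because its response to anti-LAIR-1 differed between stimulated and unstimulated cells by a tested interaction of 0.84 on the log2 scale (edgeR adjusted p = 0.0076). The markers Lef1, Tcf7, Il7r, Cd3e and Cd3g were called higher in the same interaction. Of the naïve T cell markers, 1 was negative and not called, and 3 of the 5 T cell markers were not called.

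In 3 further named members, anti-LAIR-1 moved the level one way in all 3 mice of unstimulated cells and the opposite way in all 3 mice of stimulated cells. Only named members were searched for this pattern and its share over all symbols was not counted, so nothing is read from the number. The interactions were 1.09 for Zfp831, −0.52 for Zfp809 and −0.95 for Zfp770, and none passed the test (edgeR adjusted p = 0.33, 0.55 and 0.298). Zfp831 rested on 17 counts in stimulated cells with isotype and 41 in those with anti-LAIR-1.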

How the results depend on the processing

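With anti-CD3, no member call changed direction under any of 15 other settings per comparison, and the counts stayed within 1.5 times. The fewest calls kept with isotype were 87 of 108, with at least 10 counts in every library, where 20 were not tested. With anti-LAIR-1 they were 87 of 119, with libraries thinned to the smallest total, where 16 were not tested. DESeq2's test gave 30 higher and 70 lower members with isotype, 29 and 76 with anti-LAIR-1, 2 and 3 for anti-LAIR-1 in stimulated cells and 1 and 0 for the interaction. With isotype, DESeq2's size factors gave 35 and 74, library totals alone 28 and 85, at least 10 counts in every library 29 and 66 and all 12 libraries in 1 fit 38 and 77. With anti-LAIR-1 these gave 31 and 85, 27 and 99, 24 and 84, and 30 and 85. Leaving out 1 library gave 31 to 37 higher and 67 to 80 lower members with isotype, and 29 to 31 higher and 73 to 82 lower with anti-LAIR-1. The upper quartile moved the share of member calls that were higher from 31.5% to 20.5% with isotype and from 26.1% to 18.5% with anti-LAIR-1, beside 49.4% to 42.2% and 50.1% to 40.6% of all calls. With the mouse as a block (pairing by animal), the counts were 34 higher and 73 lower with isotype, 31 and 83 with anti-LAIR-1, 2 and 5 for anti-LAIR-1 in stimulated cells, 0 and 0 in unstimulated cells and 1 and 0 for the interaction.

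For anti-LAIR-1 in stimulated cells, the 2 higher and 4 lower members became 1 and 0 when libraries were thinned to the smallest total, and 7 were lower without a filter on low counts, where 1 was also lower in unstimulated cells. Leaving out 1 library gave 1 to 3 higher and 0 to 5 lower in stimulated cells, 0 higher and 0 to 1 lower in unstimulated cells, and 1 to 2 higher and 0 to 1 lower for the interaction. The causes were not tested. Where a group kept 2 libraries, the spread was pooled over the groups fitted. Levels under about 1 CPM rest on a few counts, and at this depth small changes of the weakest members were not detectable.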
